A study of Homo sapiens with 4 samples.

Results

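The genes described here are the Notch receptors NOTCH1, NOTCH2 and NOTCH3, the ligands JAG1, JAG2 and DLL1, and the target genes HES1, HES4, HEY1 and NRARP. They were chosen by name, as every probe set whose platform annotation gave exactly 1 gene symbol equal to one of these 10. This gave 25 of the 54613 probe sets that were not controls, and 10 of 19775 genes with such a probe set. RNA came from KYSE410, an established cell line of human esophageal squamous cell carcinoma, measured on Affymetrix arrays with 1 array per sample. The groups were 2 untreated samples and 2 samples given 20 nM YM155 for 6 h, and what was asked is how their transcript levels differ. YM155 is an imidazolium compound that came into use for lowering survivin, an inhibitor of apoptosis. One protocol field of the labels names another drug, cisplatin, with another dose and exposure time. The group labels and the series title give YM155, and these were followed. Treated samples carry B1 or B2 in their titles, with no statement of what that marks. No separate cultures are named in words, so p-values measure only the spread among these arrays and that spread may be technical.

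Notch signalling passes between neighbouring cells. A ligand of the Jagged or Delta family on one cell binds a Notch receptor on the next, the receptor is cleaved by an ADAM protease and then by gamma-secretase, and the freed intracellular domain enters the nucleus. There it joins the DNA-binding protein RBPJ and a Mastermind coactivator and switches on genes of the HES and HEY families, which encode basic helix-loop-helix repressors, and NRARP, which encodes a feedback inhibitor. In stratified squamous epithelium Notch activity is known to accompany the exit of basal cells into differentiation, and NOTCH1 is often mutated in squamous carcinoma.

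After YM155, HES1 stood higher and most of the other genes stood lower. Levels are given as log2 of the deposited intensity, and each gene by its brightest probe set, which has the highest mean over the arrays. The HES1 mean was 1.38 log2 higher, a 2.60-fold ratio, while HEY1, DLL1 and NOTCH3 were lower by 0.91, 0.87 and 0.60 log2. Of the 10 genes, 8 had a lower and 2 a higher mean in YM155 arrays. In 7 of 10, both YM155 arrays lay below both untreated arrays, and in 1 of 10, HES1, both lay above. Over all 14043 genes tested the shares were 25.6% below and 19.3% above. Among the genes that lay below, the nearest arrays of the groups were 0.05 log2 apart in JAG1, 0.08 in JAG2 and 0.09 in NRARP and NOTCH2. They were 0.49 log2 apart in NOTCH3, 0.60 in DLL1 and 0.73 in HEY1. The median difference was −0.36 log2 over the 10 genes and −0.02 over all genes tested. None of the 10 passed the threshold of an adjusted p under 0.05 in limma, with adjusted p between 0.200 and 0.763, and neither did any other gene (0 higher and 0 lower, 0.0% each). At an unadjusted p under 0.05, 1 of the 10 was higher and 3 were lower, where the shares over all genes were 5.23% higher and 7.48% lower (734 and 1051 genes).

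Probe set by probe set, without a limit on low values, 14 of the 25 had both YM155 arrays below both untreated arrays and 3 of 25 had both above, where the shares over all 54613 probe sets were 20.5% and 18.9%. At an unadjusted p under 0.05 in limma, 5 of 25 were lower and 2 of 25 higher, against 4.98% and 4.37% of all probe sets, and 0 passed the adjusted threshold. The probe sets of a gene read the same transcripts and do not count as replicates.

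The untreated arrays were not alike. Among 32768 probe sets above the limit on low values, the 40th percentile of mean log2 (3.32), the untreated arrays were at least 2-fold apart at 1690 and the YM155 arrays at 56. Untreated replicate 1 was at least 2-fold from the YM155 arrays at 739 and 850 probe sets, fewer than from its own replicate, and untreated replicate 2 at 1811 and 2140. The differences of the 10 genes are therefore also given against each untreated array, in the text or in the plot by untreated array. The signal ratio of the 3' to the 5' control probe sets of ACTB, which rises as RNA is degraded, was 2.72 and 2.18 log2 in the untreated samples and 2.10 and 2.95 log2 after YM155, so the groups overlapped in it. For GAPDH this ratio was 0.04 and 0.04 log2 in the untreated samples and 0.03 and 0.21 log2 after YM155. YM155 replicate 2 was highest in both. Squamous markers were bright in every array: the epidermal marker SFN was between 12.2 and 13.2 log2, S100A2 between 12.4 and 13.1 and the basal keratin gene KRT5 between 10.7 and 11.2. All 6 measured squamous markers had a higher mean in YM155 arrays, as did 6612 of all 14043 genes tested. In 4 of 6 both YM155 arrays lay above both untreated arrays, against 19.3% of all genes. PKP1 gave 0.01 and S100A2 0.26, both with overlap. The summed intensity of the 6, in which SFN and S100A2 weigh most, was 12827 and 17903 in the untreated samples and 20352 and 21000 after YM155. The part of these marker differences in the Notch results was not tested. Endothelial cells also use Notch, but of 6 endothelial markers 3 lay below the limit, among them CDH5 and KDR, and the brightest, ESAM and PECAM1, were at 4.22 to 4.46 and 4.12 to 4.45 log2. Of 6 fibroblast markers 3 lay below it, and the brightest, COL1A1 and PDGFRB, were at 6.08 to 6.24 and 4.33 to 4.55 log2. Of 4 measured leukocyte markers 3 lay below it, and CD3D was at 4.17 to 4.37 log2.

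**Figure D1:**
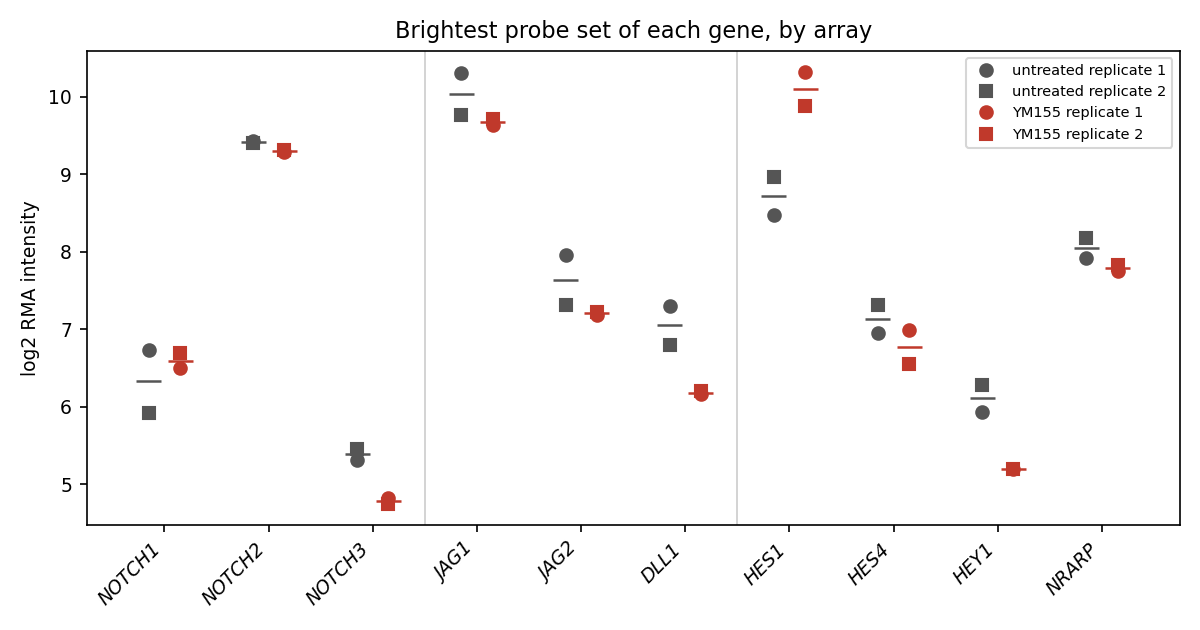
Log2 RMA intensity (vertical axis) of the brightest probe set of each of the 10 genes, with 1 point per array (grey untreated, red YM155; circles replicate 1, squares replicate 2) and short lines at the group means. HES1 is the gene whose YM155 arrays both lie above its untreated arrays (9.88 and 10.31 against 8.47 and 8.97); heights are not comparable between genes, since probe sets differ in brightness.

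Among the receptors, NOTCH3 differed most. NOTCH3 is expressed in epithelium and in mural cells of vessels and is itself a known Notch target. Its brightest probe set (203238_s_at) was at 5.32 and 5.46 log2 in untreated arrays and at 4.83 and 4.75 log2 in YM155 arrays. The groups did not overlap, and the 2 arrays of each group lay close together. The difference was −0.60 ± 0.13 log2 (SE, n = 2 per group; limma adjusted p = 0.238), with a 95% interval from −0.94 to −0.25, and it was −0.52 against untreated replicate 1 and −0.67 against untreated replicate 2. The other NOTCH3 probe set (203237_s_at), at 4.66 and 4.85 log2 in untreated and 4.66 and 4.83 log2 in YM155 arrays, overlapped and gave −0.01. The lower NOTCH3 signal was thus seen in 1 of its 2 probe sets. Both were dim, and their distance from background was not tested. With 16 added to each intensity before log2, NOTCH3 gave −0.41.

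NOTCH1, the receptor with the best established part in squamous differentiation, had no settled direction. Its brightest probe set (218902_at) was at 6.73 and 5.93 log2 in untreated arrays and at 6.50 and 6.70 log2 in YM155 arrays. Both YM155 arrays lay between the untreated arrays. The mean difference was 0.27 ± 0.30 log2 (SE, n = 2 per group; limma adjusted p = 0.763; 95% interval −0.51 to 1.05), and it was −0.13 against untreated replicate 1 but 0.67 against untreated replicate 2. The dimmer NOTCH1 probe set (223508_at), between 3.34 and 3.63 log2, gave −0.03.

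NOTCH2 showed the smallest difference of the 10 genes, and its replicates nearly coincided. Its brightest probe set (202443_x_at) was at 9.43 and 9.41 log2 in untreated and at 9.28 and 9.31 log2 in YM155 arrays. The YM155 arrays were lower without overlap, by 0.12 log2 (SE 0.12, n = 2 per group; limma adjusted p = 0.739), and the 95% interval of the difference ran from −0.44 to 0.20. All 4 NOTCH2 probe sets had YM155 arrays below the untreated arrays, by −0.21 to −0.04 log2, although 1 of them (202445_s_at) lay below the limit on low values. The suffix _x_at marks a probe set that may also detect related sequences, and NOTCH2 has close partial copies in the genome, so its signal may be shared with them. NOTCH4, better known from endothelium, was between 5.04 and 5.37 log2 in its brighter probe set and gave −0.22.

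Among the ligands, DLL1 differed most. DLL1 is a Delta-family ligand made in the basal layer of the epidermis. Its brightest probe set (224215_s_at) was at 7.30 and 6.80 log2 in untreated arrays and at 6.16 and 6.20 log2 in YM155 arrays. The YM155 arrays lay close together and below both untreated arrays. The difference was −0.87 ± 0.20 log2 (SE, n = 2 per group; limma adjusted p = 0.246; 95% interval −1.40 to −0.34), a ratio of 0.55, and it was −1.11 against untreated replicate 1 and −0.62 against untreated replicate 2. The second DLL1 probe set (227938_s_at), between 2.96 and 3.14 log2, lay below the limit on low values and gave −0.09.

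The Jagged ligands were lower mainly against untreated replicate 1. JAG2 was measured by 2 probe sets. The brighter (32137_at) was at 7.96 and 7.31 log2 in untreated and at 7.18 and 7.23 log2 in YM155 arrays, a difference of −0.43 ± 0.24 log2 (SE, n = 2 per group; limma adjusted p = 0.547). The other (209784_s_at) was at 7.82 and 7.02 log2 in untreated and at 6.71 and 6.65 log2 in YM155 arrays, a difference of −0.74. Neither overlapped between the groups, but the untreated arrays lay farther from each other than untreated replicate 2 lay from the YM155 arrays. Against untreated replicate 1 the brighter probe set was lower by 0.75 log2, and against replicate 2 by 0.11.

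JAG1, a Jagged ligand found in many epithelia, had 6 probe sets. The brightest (216268_s_at) was at 10.30 and 9.76 log2 in untreated and at 9.63 and 9.72 log2 in YM155 arrays. Untreated replicate 1 stood apart, and the other 3 arrays lay close together. The mean difference was −0.36 ± 0.22 log2 (SE, n = 2 per group; limma adjusted p = 0.566; 95% interval −0.93 to 0.20), made up of −0.63 against untreated replicate 1 and −0.09 against replicate 2. Over the 6 probe sets the differences ran from −0.36 to −0.001, and 2 of 6 did not overlap. The next brightest, 209099_x_at and 231183_s_at, gave −0.42 and −0.34 against untreated replicate 1 but 0.06 and 0.12 against replicate 2. The dim 209097_s_at gave 0.09 and −0.09 against replicates 1 and 2. Lower against both were 209098_s_at (−0.39 and −0.28) and 229924_s_at (−0.37 and −0.08). The further ligand genes on the pathway list went both ways: DLK2, a non-canonical ligand, gave −0.56 without overlap (−0.90 against untreated replicate 1 and −0.21 against replicate 2), DLL3 gave 0.28 (0.41 and 0.16), DLK1 0.14 (−0.09 and 0.38) and DLL4, the endothelial ligand, −0.04.

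**Figure D2:**
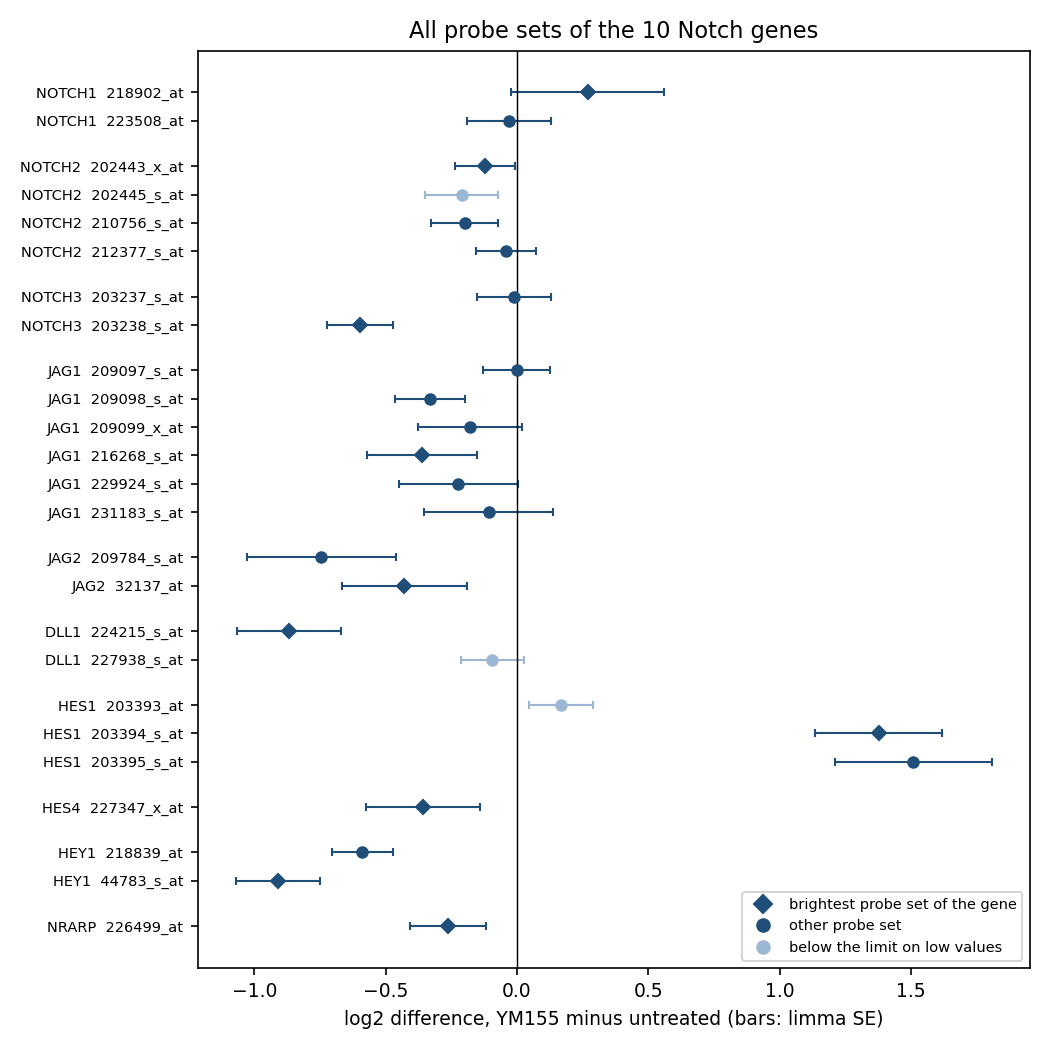
Log2 difference, YM155 minus untreated, with limma standard errors (horizontal axis) for all 25 probe sets of the 10 genes; diamonds mark each gene's brightest probe set and pale points lie below the limit on low values. The 3 HES1 probe sets lie right of 0, those of HEY1, JAG2, DLL1 and NOTCH2 lie left of it, and the largest are 1.38 and 1.51 for HES1.

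The target genes did not share a direction. HES1 is the repressor most widely used as a readout of Notch activity, and it is also induced by other pathways and represses its own promoter. Its brightest probe set (203394_s_at) was at 8.47 and 8.97 log2 in untreated arrays and at 10.31 and 9.88 log2 in YM155 arrays. The nearest arrays of the groups were 0.91 log2 apart, more than the 0.50 and 0.43 log2 between arrays within the groups. The difference was 1.38 ± 0.25 log2 (SE, n = 2 per group; limma adjusted p = 0.200; 95% interval 0.73 to 2.02), and it was 1.62 against untreated replicate 1 and 1.13 against untreated replicate 2. A second HES1 probe set (203395_s_at) was at 6.77 and 7.22 log2 in untreated and at 8.86 and 8.14 log2 in YM155 arrays, a difference of 1.51. Its last probe set (203393_at), at 1.82 to 2.10 log2, lay far below the limit on low values and gave 0.17.

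HEY1, a relative of HES1 and also a direct Notch target in many cells, stood on the other side. Its brightest probe set (44783_s_at) was at 5.93 and 6.29 log2 in untreated arrays and at 5.20 and 5.20 log2 in YM155 arrays. The groups did not overlap and the YM155 arrays were nearly equal. The difference was −0.91 ± 0.17 log2 (SE, n = 2 per group; limma adjusted p = 0.203; 95% interval −1.35 to −0.47), a ratio of 0.53. The other HEY1 probe set (218839_at) was at 5.07 and 5.14 log2 in untreated and at 4.53 and 4.51 log2 in YM155 arrays, a difference of −0.59. Both HEY1 probe sets were dim, and their distance from background was not tested. With 16 added to each intensity before log2 (a pseudocount), HEY1 gave −0.69. Without untreated replicate 1, HEY1 was the only 1 of the 10 genes below the threshold in limma (−1.09 log2, adjusted p = 0.041), in a fit that called 604 genes higher and 521 lower; over all alternatives tried for HEY1 the adjusted p ran from 0.041 to 1. That fit takes the spread of untreated samples from the YM155 arrays, since 1 untreated array has none of its own.

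HES4 and NRARP differed less. NRARP encodes a small ankyrin-repeat protein that binds the Notch intracellular domain and limits its activity. Its probe set (226499_at) was at 7.92 and 8.18 log2 in untreated and at 7.75 and 7.82 log2 in YM155 arrays, lower without overlap by 0.26 log2 (SE 0.15, n = 2 per group; limma adjusted p = 0.552; 95% interval −0.66 to 0.13). HES4, a relative of HES1, had 1 probe set (227347_x_at), at 6.95 and 7.31 log2 in untreated and at 7.0 and 6.56 log2 in YM155 arrays. Its groups overlapped, and the difference was −0.36 ± 0.22 log2 (SE, n = 2 per group; limma adjusted p = 0.579; 95% interval −0.94 to 0.22). Over the arrays left out in turn, NRARP ran from −0.39 to −0.13 and HES4 from −0.58 to −0.14. For both genes the 95% interval lay below the 1.38 log2 measured for HES1. That value has its own 95% interval, from 0.73 to 2.02, and no interval was computed for a difference between genes.

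The gap between HES1 and each of the other targets was taken within each array, so that a shift shared by an array cancels. From untreated to YM155 arrays the gap widened by 2.29 log2 against HEY1, by 1.73 log2 against HES4 and by 1.64 log2 against NRARP. HES1 was taken as the reference after its values were seen, so these gaps are a description. An exact permutation test gave p = 0.333 for each gap. That is the lowest p it can give with 2 arrays per group, so it cannot decide. Of the further target genes, HES2 gave 0.33, HES6 0.11, HES5 0.10, HEYL −0.02 and HES7 −0.34 (−0.09 against untreated replicate 1 and −0.60 against replicate 2), and HEY2 lay below the limit on low values.

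HES1 and HES4 had mean differences of opposite sign, and the promoters of both hold a match to the RBPJ motif, so the 250 bases before the start of each are shown. They were read from RefSeq's promoter table for GRCh38.p14, which held 8 of the 10 genes (not DLL1 and HEY1). The HES1 stretch is chr3:194135898-194136147 on the plus strand and the HES4 stretch is chr1:1000098-1000347 on the minus strand, both written 5′ to 3′ along the gene, with each TGGGAA, the core of the RBPJ motif, in capitals.
HES1: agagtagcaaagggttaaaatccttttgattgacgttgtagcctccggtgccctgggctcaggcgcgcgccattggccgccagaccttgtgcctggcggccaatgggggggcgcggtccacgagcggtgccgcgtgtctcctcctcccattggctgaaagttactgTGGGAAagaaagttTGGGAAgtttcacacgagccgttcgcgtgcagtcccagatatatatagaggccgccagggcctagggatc
HES4: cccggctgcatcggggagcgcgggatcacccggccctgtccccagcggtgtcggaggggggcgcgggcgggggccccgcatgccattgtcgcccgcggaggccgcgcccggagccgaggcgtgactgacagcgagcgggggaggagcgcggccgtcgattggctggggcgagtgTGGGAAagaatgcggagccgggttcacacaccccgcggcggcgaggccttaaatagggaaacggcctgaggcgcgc

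Both strands were searched for GTGGGAA, for its core TGGGAA, which every GTGGGAA contains, and for the N box CACNAG, a site that HES proteins bind. GTGGGAA was found in 5.43% of 35116 RefSeq promoter windows of 250 bases, TGGGAA in 20.85% and CACNAG in 32.04%. HES1 held GTGGGAA from 85 to 79 bases before its start and a further TGGGAA from 70 to 65 bases before it; 2.9% of windows held TGGGAA at 2 or more places. HES4 held GTGGGAA from 77 to 71 bases before its start. Around this match HES1 and HES4 had 12 bases in common, tgTGGGAAagaa. HES1 also had 3 matches to the N box and HES4 had 0, where 6.32% of windows held 2 or more. NRARP, the receptors and the Jagged ligands had 0 matches to TGGGAA in this window. These matches describe letters in the reference genome; binding was not measured.

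**Figure D3:**
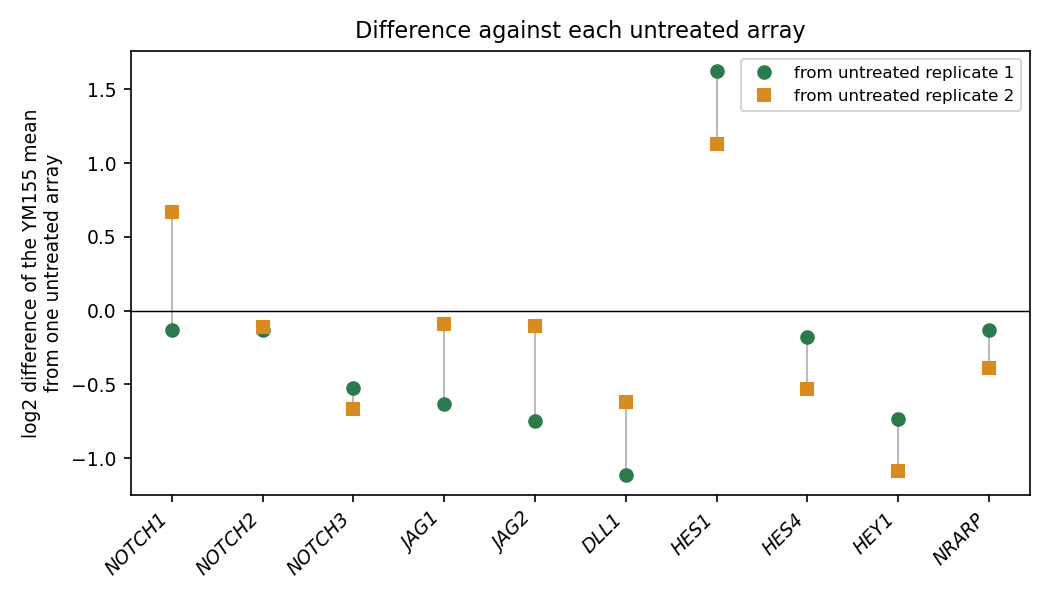
Log2 difference of the mean of the YM155 arrays from untreated replicate 1 (green circles) and from untreated replicate 2 (orange squares), vertical axis, for the brightest probe set of each gene. The sign is the same against both for 9 of 10 genes; NOTCH1 goes from −0.13 to 0.67, and JAG1 and JAG2 come near 0 against replicate 2.

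In the brightest probe sets, the direction of most genes did not rest on 1 array. The number of genes with a lower YM155 mean was 8 of 10 without untreated replicate 1 and 9 of 10 without untreated replicate 2, where 49.0% and 58.2% of all genes had one. It stayed at 8 without either YM155 array.

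The other genes of the pathway were taken from a list of 76 in 9 roles, of which 65 were tested; 6 had no probe set with that single symbol and 5 (CCN3, HEY2, NUMB, KRT1 and IVL) lay below the limit on low values. Of the 65, 33 had a higher and 32 a lower mean in YM155 arrays, with a median of 0.03 log2, and 0 passed the adjusted threshold in limma. At an unadjusted p under 0.05, 5 were higher and 3 lower, against the same shares over all genes, 5.23% and 7.48%. Both YM155 arrays lay above both untreated arrays in 16 of 65 and below in 18 of 65, against 19.3% and 25.6% of all genes.

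Of 9 tested glycosyltransferase genes that modify the receptor, 3 were higher and 0 lower at an unadjusted p under 0.05 in limma. The shares over all genes were 5.23% and 7.48%, and 0 of the 9 passed the adjusted threshold. MFNG and LFNG are Fringe enzymes, which extend O-fucose on the receptor and alter its response to Delta and Jagged ligands. MFNG was at 6.31 and 6.02 log2 in untreated and at 6.87 and 6.93 log2 in YM155 arrays, a difference of 0.73 ± 0.15 log2 (SE, n = 2 per group; limma adjusted p = 0.232). LFNG was at 5.74 and 5.58 log2 in untreated and at 6.11 and 6.32 log2 in YM155 arrays, a difference of 0.56 ± 0.15 log2 (SE; limma adjusted p = 0.282). The xylosyltransferase gene GXYLT1 gave 0.44 and its relative GXYLT2 −0.42, while RFNG, the remaining Fringe gene, gave −0.12. The dimmer probe sets did not follow: they gave 0.05 and −0.05 for MFNG, 0.04 for LFNG and 0.12 for GXYLT1. POGLUT1, the O-glucosyltransferase gene, had the largest mean difference of this role, 1.14 log2, but it was at 7.87 log2 in untreated replicate 1, at 5.77 log2 in untreated replicate 2 and at 7.92 and 8.0 log2 in YM155 arrays. Untreated replicate 2 alone was low, and the difference from untreated replicate 1 was 0.09.

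Among the genes of ligand endocytosis and receptor turnover, NEURL1B stood lowest. NEURL1B encodes an E3 ubiquitin ligase of the Neuralized family, which acts on ligands. It was at 7.13 and 7.29 log2 in untreated and at 6.14 and 6.08 log2 in YM155 arrays. The groups were well separated, and the difference was −1.10 ± 0.13 log2 (SE, n = 2 per group; limma adjusted p = 0.163), close to the same against each untreated array (−1.02 and −1.18). Several others moved with the array left out. DTX2, a Deltex ubiquitin ligase gene, gave −0.78 (−1.06 to −0.50 over the arrays left out) and the related DTX3L 0.51 with overlap of its arrays (0.06 to 0.96). NEURL1 gave −0.38 (−0.66 to −0.10) and NUMBL 0.37 (0.13 to 0.61), although a dimmer probe set of NUMBL gave −0.14. The other ligand ubiquitin ligase genes of the list, MIB1 and MIB2, gave −0.14 each with overlap in their brightest probe sets. The other 4 MIB2 probe sets gave −0.81 to −0.25, all without overlap.

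In the nuclear complex, RBPJ, the DNA-binding subunit, was at 9.26 and 9.56 log2 in untreated and at 8.98 and 9.15 log2 in YM155 arrays, a difference of −0.35 ± 0.17 log2 (SE, n = 2 per group; limma adjusted p = 0.480), of which −0.20 was against untreated replicate 1 and −0.50 against replicate 2. MAML2, a Mastermind coactivator gene, was at 4.79 and 4.65 log2 in untreated and at 4.10 and 3.70 log2 in YM155 arrays, a difference of −0.82 ± 0.18 log2 (SE; limma adjusted p = 0.241). MAML1 and MAML3 gave 0.13 and 0.03. The histone acetyltransferase genes CREBBP and EP300 gave 0.96 and 0.39, mainly against untreated replicate 2 (1.64 and 0.66, compared with 0.29 and 0.12 against replicate 1). Among corepressor genes, TLE3, a Groucho partner of HES proteins, gave −0.88, of which −1.35 was against untreated replicate 2 and −0.42 against replicate 1, and L3MBTL3 gave −0.66 (−1.14 and −0.19). TLE1 and SPEN gave 0.22 and 0.20. Receptor processing genes differed little in their brightest probe sets: over 8 tested the differences ran from −0.29 for ADAM17 to 0.16 for PSEN2 (−0.26 against untreated replicate 1 and 0.57 against replicate 2), with FURIN at −0.21 and APH1B at −0.17. A second APH1B probe set gave −0.93.

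Of genes linked to Notch in keratinocytes, the cell cycle inhibitor gene CDKN1A was at 7.99 and 8.03 log2 in untreated and at 8.88 and 8.95 log2 in YM155 arrays, a difference of 0.91 ± 0.12 log2 (SE, n = 2 per group; limma adjusted p = 0.175). MYC was at 8.30 and 9.13 log2 in untreated and at 10.35 and 9.84 log2 in YM155 arrays, a difference of 1.38 ± 0.34 log2 (SE; limma adjusted p = 0.261), of which 1.80 was against untreated replicate 1 and 0.96 against replicate 2. Both are also targets of many other pathways. The keratin gene KRT10 gave 0.15 with overlap, and KRT1 and IVL, markers of suprabasal cells, lay below the limit on low values.

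**Figure D4:**
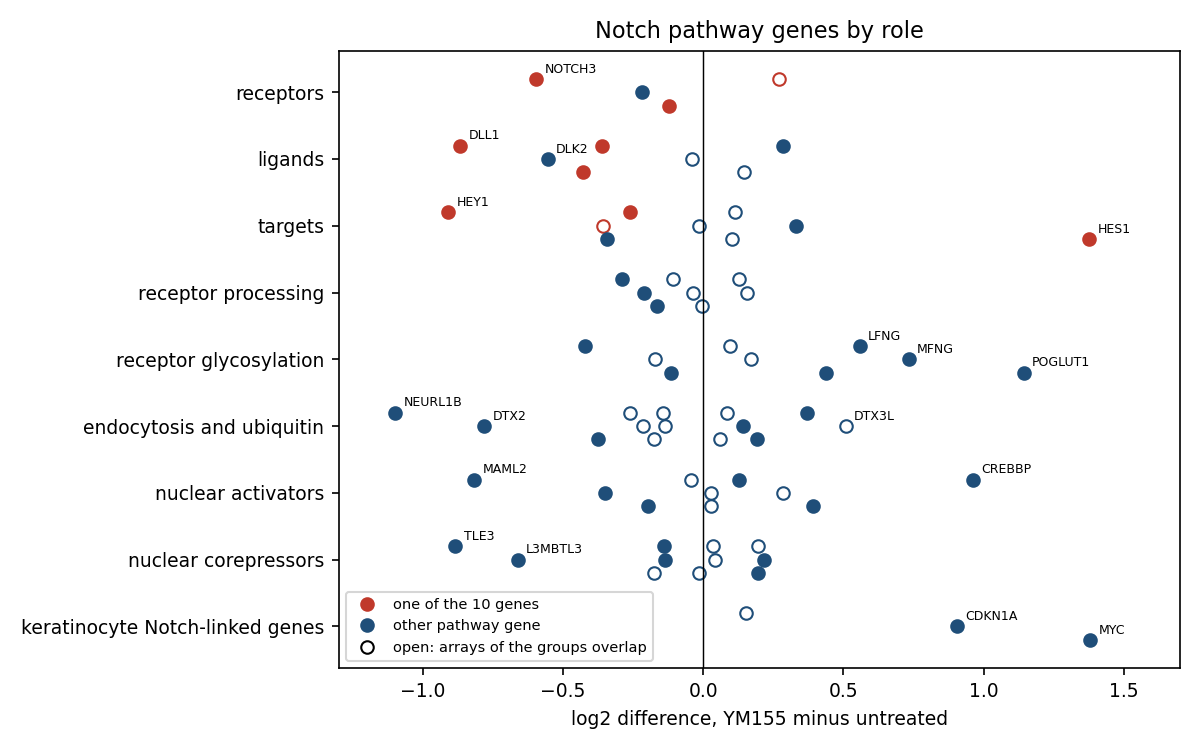
Log2 difference, YM155 minus untreated (horizontal axis), of the 75 tested Notch pathway genes by role, with the 10 genes in red and the others in blue; open circles mark genes whose groups overlap, and genes at least 0.5 log2 from 0 are named. HES1 (1.38) and HEY1 (−0.91) stand at opposite ends of the targets, and each role except the keratinocyte genes has members on both sides of 0.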

How the data were processed

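Each probe set has 1 deposited intensity on each array, which the authors computed with RMA (robust multi-array averaging) per the submitters' processing notes; its version is not given in the sources used here. The deposited intensity values ran on a linear scale up to 15214, so log2 was taken. RMA sets arrays to a common distribution, so a difference is measured against the rest of the array. Control probe sets (62 of 54675) were dropped. Symbols were those of the platform annotation, and all 10 genes matched RefSeq by gene ID.

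Probe sets with a mean log2 below the 40th percentile were left out, each gene was represented by its single-symbol probe set of highest mean, and 14043 genes were fitted with limma 3.58.1 in R 4.3.3 (lmFit, eBayes, group as the only term, two-sided, Benjamini-Hochberg). All 10 genes passed this filter. A second fit took all 54613 probe sets with no filter; it gave the values of dimmer probe sets and called 0 (2386 higher and 2721 lower at an unadjusted p under 0.05). With 2 arrays per group, 2 residual degrees of freedom limit the precision. On simulated data for YM155 against untreated (14043 independent genes), 4 of 100 genes shifted by 1 log2 were found, 82 of 100 shifted by 2 log2, and 4 unshifted genes were called.

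Named were all 10 genes, up to 4 further genes per role by absolute difference, those with an unadjusted p under 0.05 without overlap, and 2 markers per cell type; single further genes (such as KRT5, CDH5, KDR, MIB1, RFNG, HES5 and HEYL) were named after their values were seen. The genes and lists were chosen with earlier results of these data known, so their counts beside the shares over all genes are a description. Alternatives were other filters, averaged probe sets, unsuffixed probe sets, a second quantile normalization, median centring, a pseudocount of 16, eBayes with trend and robust, a replicate block and each array left out.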

Additional observations from a re-analysis of the deposited data

How the results depend on the processing

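Filters, probe set choice, scaling, the pseudocount of 16 and eBayes settings left every one of the 10 genes with its direction and an adjusted p above 0.05 in limma, where they gave it a value; HES1 ran from 1.34 to 1.44 log2, HEY1 from −0.91 to −0.59 and NOTCH3 from −0.60 to −0.30. NOTCH1 ran from −0.13 without untreated replicate 2 to 0.67 without replicate 1, and the cause was not tested. Over the arrays left out, the number of genes called ran from 0 to 1125, the latter without untreated replicate 1, and the cause was not tested; the probe set fits, unfiltered or over 32768, gave 0. With the replicate number as a block, 0 genes and 0 probe sets were called, and same-numbered arrays did not deviate together (correlation −0.03 over probe sets), so the numbers were not taken as pairs. Counts of the 10 genes without each array, added after seeing the data, ran from 8 to 9 for a lower mean and from 7 to 8 for arrays that lay wholly lower, where the share of all genes that lay so was 25.6% with every array and 34.3% to 47.4% without 1. Only unsuffixed probe sets gave no value for NOTCH2, NOTCH3, JAG1, DLL1, HES1 and HES4. Detection calls were not used here, so the limit of 3.32 log2 does not mark background.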
